A study of Mus musculus with 12 samples.

Results

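Of 13801 autosomal regions bound by the transcription factor YY1 in at least 2 of 4 libraries, 230 carried peaks of 1 genotype only. They were selected on the peak calls themselves. Joining all peaks of the 4 YY1 lists that overlapped by 1 bp or more gave 19768 merged regions, 19268 of them on chromosomes 1 to 19, and a region was kept when both libraries of 1 genotype had a peak there and neither library of the other did. This left 167 XistΔ/Δ-specific regions (1.21% of the autosomal consensus regions) and 63 WT-specific regions (0.456%). Presence and absence of peaks were therefore the measured values that chose the members, and the counts are a description with no test.

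The libraries came from lineage-negative (Lin−) bone marrow cells, the stem and progenitor cells left after cells with markers of mature lineages are removed, of 3-month-old female mice of the strain 129Sv4/Jae x B6 (B6 being C57BL/6J in the methods of the study). Wild type (WT) and XistΔ/Δ were compared, with 2 libraries each, and all 4 were made with the same anti-YY1 antibody without any drug treatment stated. In XistΔ/Δ mice a floxed Xist gene was deleted by Vav-iCre, a Cre transgene driven by Vav1 sequences and thus active in blood cells, whose strain name places it at the gene Commd10. The sources used here do not say whether WT mice carried the transgene, which strain's alleles each mouse had at a given locus, or whether animals were pooled. The methods of the study call its ChIP-seq replicates biological.

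YY1 is a zinc finger protein that binds promoters and enhancers and can hold them together in loops. Its recognition sequence centres on the letters GCCAT, or ATGGC on the other strand, and sites at active promoters often extend to AANATGGC. On the X chromosome YY1 is known for binding Xist, a noncoding RNA whose spread over one X chromosome shuts it down. Xist is also the gene deleted in XistΔ/Δ mice, so its peaks served here only as a check of the genotype labels. At the start of Xist itself, peaks of 3083 and 3222 bp were present in WT replicates 1 and 2 and absent from both XistΔ/Δ libraries. Another region at Xist had peaks of 633 bp in WT replicate 2 and 784 bp in XistΔ/Δ replicate 2.

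The libraries differed in depth by replicate number, with 24.9 and 23.1 M tags (aligned reads as HOMER counts them) in the replicate 1 libraries of WT and XistΔ/Δ and 50 and 59.5 M in the replicate 2 libraries. The lists held 9553 and 10075 peaks in replicate 1 and 15933 and 18113 in replicate 2. The immunoprecipitation efficiency that HOMER gave differed too, with 3.58% and 3.59% in replicate 1 and 4.87% and 4.88% in replicate 2. The calling threshold was 22 tags in both replicate 1 libraries and 33 and 37 tags in replicate 2. Regions with a peak in both replicate 2 libraries and neither replicate 1 library numbered 3457, against 7589 with a peak in all 4. Within replicate 1 alone 1851 autosomal regions had an XistΔ/Δ peak only and 1518 a WT peak only, and within replicate 2 alone 3862 and 1816. The directory names in the list headers carry 1 number for both replicate 1 libraries and another for both replicate 2 libraries, and what it stands for is not given in the sources used here. They also give other replicate numbers than the labels for 3 of the 4 libraries, and the numbers used here are those of the labels.

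The sequences under the highest-ranked member of each class are printed first, members being ranked by the mean percentile of their peak width in the 2 libraries with a peak. Each is the reference sequence (GRCm38, RefSeq copy, plus strand) of the 300 bases around the midpoint of the region, with every match to the YY1 core in capitals. The window in the Vav1 intron held 2 core matches and no full AANATGGC, and the window in the pseudogene Gm6345 held 1 core match and no full motif.
Vav1, XistΔ/Δ-specific, chr17:57290475-57290774, plus strand: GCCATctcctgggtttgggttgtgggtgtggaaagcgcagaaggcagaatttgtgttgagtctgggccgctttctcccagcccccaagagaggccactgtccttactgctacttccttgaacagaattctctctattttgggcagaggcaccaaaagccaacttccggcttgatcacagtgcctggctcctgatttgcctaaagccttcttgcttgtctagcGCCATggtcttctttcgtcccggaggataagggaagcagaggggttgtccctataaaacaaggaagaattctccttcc
Gm6345, WT-specific, chr1:170255286-170255585, plus strand: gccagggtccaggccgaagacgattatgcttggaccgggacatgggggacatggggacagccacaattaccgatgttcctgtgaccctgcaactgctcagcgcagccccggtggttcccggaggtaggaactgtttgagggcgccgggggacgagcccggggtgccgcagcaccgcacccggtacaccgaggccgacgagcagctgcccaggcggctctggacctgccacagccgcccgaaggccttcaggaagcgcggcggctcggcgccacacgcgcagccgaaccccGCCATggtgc

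The full motif was found in the 300-base windows of 17 XistΔ/Δ-specific regions (10.2%, exact 95% interval 6.04% to 15.8%) and 10 WT-specific regions (15.9%, 7.88% to 27.3%). Among all autosomal consensus regions the share was 10.5%. The intervals of both classes, which cover counting error only, include that share. Of the 15 XistΔ/Δ-specific and 10 WT-specific regions with the highest ranks, only the one at Ptpn3 held a full motif in its 300-base window. In wider regions this window covers the middle only. The sites of the 5 highest-ranked members of each class that had one are given so that their surroundings can be compared, with the motif in capitals, read along the strand that carries it and with at most 16 bases on each side. All but Ptpn3 were chosen after their values were seen.
Wnt10b, XistΔ/Δ-specific, chr15:98772784-98772813, plus strand: gggtatcgataAAGATGGCtctgctcagcc
Sectm1a, XistΔ/Δ-specific, chr11:121083327-121083366, minus strand: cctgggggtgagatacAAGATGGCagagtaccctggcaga
4922502D21Rik, XistΔ/Δ-specific, chr6:129333903-129333942, plus strand: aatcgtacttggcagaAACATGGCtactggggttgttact
Ccl28, XistΔ/Δ-specific, chr13:119635298-119635337, plus strand: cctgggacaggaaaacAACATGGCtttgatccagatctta
Mir8108, XistΔ/Δ-specific, chr8:25156189-25156218, minus strand: ccctttcagcaAAGATGGCgcaggctagaa
Ptpn3, WT-specific, chr4:57263022-57263061, minus strand: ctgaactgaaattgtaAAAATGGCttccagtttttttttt
Acss2, WT-specific, chr2:155538463-155538502, plus strand: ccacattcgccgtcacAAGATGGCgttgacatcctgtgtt
Pfn2, WT-specific, chr3:57847467-57847496, minus strand: cgaagggctcgAAGATGGCcggttggcaga
Pitpnc1, WT-specific, chr11:107449706-107449745, plus strand: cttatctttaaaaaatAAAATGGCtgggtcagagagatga
Gm30275, WT-specific, chr14:54069078-54069117, plus strand: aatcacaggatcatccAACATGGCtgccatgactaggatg
At Pitpnc1 the motif lay exactly at the midpoint, at a distance of 0 bases, whereas at Sectm1a its centre lay 108 bases away. Wnt10b, a Wnt ligand, carried peaks of 775 and 642 bp in XistΔ/Δ replicates 1 and 2. Acss2, which makes acetyl-CoA from acetate, carried peaks of 643 and 664 bp in WT replicates 1 and 2. Pfn2, a profilin that binds actin, carried peaks of 501 and 644 bp in the same order.

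The YY1 core, GCCAT on either strand, was in the windows of 90 XistΔ/Δ-specific regions (53.9%, 46.0% to 61.6%) and 36 WT-specific regions (57.1%, 44.0% to 69.5%), beside 48.9% of all autosomal consensus regions. Motifs of other factors were searched the same way, on both strands. The ETS motif CCGGAAGT occurred in 7 XistΔ/Δ-specific windows (4.19%) and in 0 of 63 WT-specific windows (exact interval up to 5.69%), beside 4.66% of all regions. The GATA motif AGATAAG occurred in 6 and 3 windows (3.59% and 4.76%, beside 2.28%), the RUNX motif TGTGGTT in 11 and 3 (6.59% and 4.76%, beside 6.17%) and the AP-1 motif TGANTCA in 13 and 6 (7.78% and 9.52%, beside 6.15%). The NRF1 motif GCGCATGC matched 4 and 1 windows (2.4% and 1.59%, beside 2.39%) and the CTCF motif AGNGGGCGC 10 and 4 (5.99% and 6.35%, beside 3.56%). For these 6 motifs the exact interval of each class included the share of all regions. A match gives letters in the reference and was not a test of binding.

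Most members were narrow. A width of 501 bp, the most frequent in every list, was found for 132 of the 167 XistΔ/Δ-specific regions in XistΔ/Δ replicate 1 (79.0%) and for 53 in replicate 2 (31.7%). Among all autosomal consensus regions the same width made up 21.9% and 8.88% of those libraries' regions. The WT-specific regions had it in 49 of 63 cases in WT replicate 1 (77.8%) and 32 in WT replicate 2 (50.8%), beside 16.9% and 11.9%. Both libraries were at 501 bp in 45 XistΔ/Δ-specific (26.9%) and 28 WT-specific regions (44.4%).

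**Figure D1:**
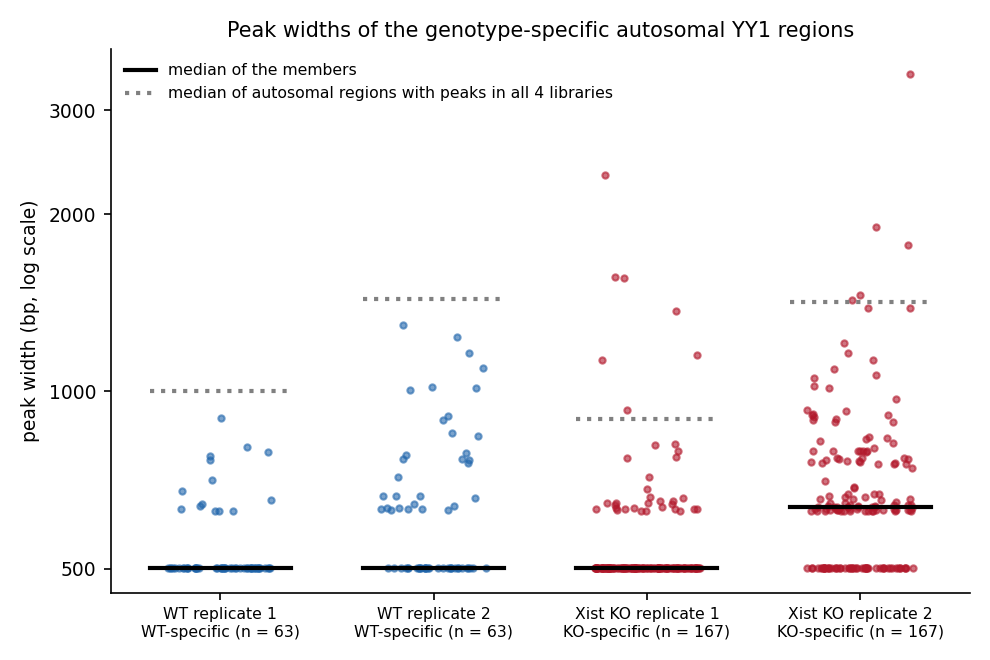
Each point is the widest peak (bp, log scale) of 1 library in 1 member region, WT-specific in the 2 WT libraries (blue) and XistΔ/Δ-specific in the 2 XistΔ/Δ libraries (red), with the members' median as a black line and that of regions with peaks in all 4 libraries as a dotted line. The medians were 501, 501, 501 and 635 bp from left to right, against 1003, 1436, 896 and 1421 bp for regions in all 4 libraries.

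The median width was 501 bp in XistΔ/Δ replicate 1 (range 501 to 2333 bp) and 635 bp in XistΔ/Δ replicate 2 (501 to 3461 bp). In the WT-specific class it was 501 bp in both WT libraries, with ranges of 501 to 900 bp and 501 to 1295 bp. Regions bound in all 4 libraries were wider, with medians of 1003 and 1436 bp in the WT libraries and 896 and 1421 bp in the XistΔ/Δ libraries, while the 3457 regions with peaks in the replicate 2 libraries alone had 641 bp in WT replicate 2 and 669 bp in XistΔ/Δ replicate 2. Each width was also ranked as a percentile among the consensus regions in which that library had a peak, ties sharing their mean. A width of 501 bp thus stood at percentile 11 and 4.44 in XistΔ/Δ replicates 1 and 2 and at 8.54 and 5.98 in WT. The percentiles still differed between libraries of unequal depth. Regions with peaks in all 4 libraries had median percentiles of 56.2 and 58.2 in the replicate 1 libraries of WT and XistΔ/Δ. In the replicate 2 libraries these medians were 70.6 and 70.5. Above percentile 50 lay 10 of 167 XistΔ/Δ-specific regions in replicate 1 and 13 in replicate 2. For the WT-specific regions these counts were 0 and 4 of 63.

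The line that the selection drew can be seen in the regions just outside it. A further 1343 autosomal regions had peaks in both XistΔ/Δ libraries and in WT replicate 2, and 29 in both XistΔ/Δ libraries and WT replicate 1. The 1343 had median widths of 501 bp in XistΔ/Δ replicate 1, 837 bp in XistΔ/Δ replicate 2 and 792 bp in WT replicate 2. On the other side, 989 regions had peaks in both WT libraries and XistΔ/Δ replicate 2, with medians of 626, 870 and 887 bp in that order, and 9 in both WT libraries and XistΔ/Δ replicate 1. Just inside the line stood the 45 and 28 members with 501 bp in both of their libraries.

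The number of members depended on single libraries and on list length. The XistΔ/Δ-specific count was 1531 when WT replicate 2 was left out, 3737 when XistΔ/Δ replicate 1 was, and 273 when XistΔ/Δ replicate 2 was. The WT-specific count was 1742 when WT replicate 1 was left out, 214 when WT replicate 2 was, and 1085 when XistΔ/Δ replicate 2 was. When every list was shortened to its first 9553 peaks in the deposited order, the order of the classes turned, with 163 XistΔ/Δ-specific and 188 WT-specific regions, and 19 of the 167 and 9 of the 63 members remained in their class. With peaks of at least 600 bp only, 60 and 33 regions were specific, of which 27 and 10 were members. Under both of these alternatives 7 XistΔ/Δ-specific members remained, at Vav1, Tdpoz3, Coil, Mrpl55, Gm48300, 1700074H08Rik and Fyb, and 4 WT-specific members remained, at Gm6345, Ptpn3, Maff and Trim8.

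The member with the highest rank lay in Vav1 (ENSMUSG00000034116.17), a signalling protein of blood cells that acts downstream of antigen receptors. The region at chr17:57288895-57292355 lay in an intron, 9795 to 13255 bp from the start of the gene. Its peak was 2333 bp wide in XistΔ/Δ replicate 1 and 3461 bp in XistΔ/Δ replicate 2, at percentiles 98.2 and 98.5, with no peak in WT. It was the widest member in both libraries. The nearest WT peak was 9035 bp away.

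Other YY1 peaks at Vav1 were absent from WT replicate 1 as well. The region over the start of the gene, chr17:57278046-57280353, had peaks of 1035 bp in WT replicate 2 and of 907 and 2308 bp in XistΔ/Δ replicates 1 and 2. A region upstream, chr17:57276399-57277781, had peaks of 770, 759 and 1299 bp in the same 3 libraries, and one farther upstream, chr17:57274875-57276099, had peaks of 1200, 722 and 807 bp. Within 50 kb of Vav1 10 regions were found, 1 of them a member and 0 with peaks in all 4 libraries. Around Commd10, the gene named in the transgene's strain name, 16 regions lay within 1000 kb, of which 6 had peaks in all 4 libraries and 0 were members. Reads from Vav1 sequence in a transgene and reads from Vav1 itself cannot be told apart in these lists.

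**Figure D2:**
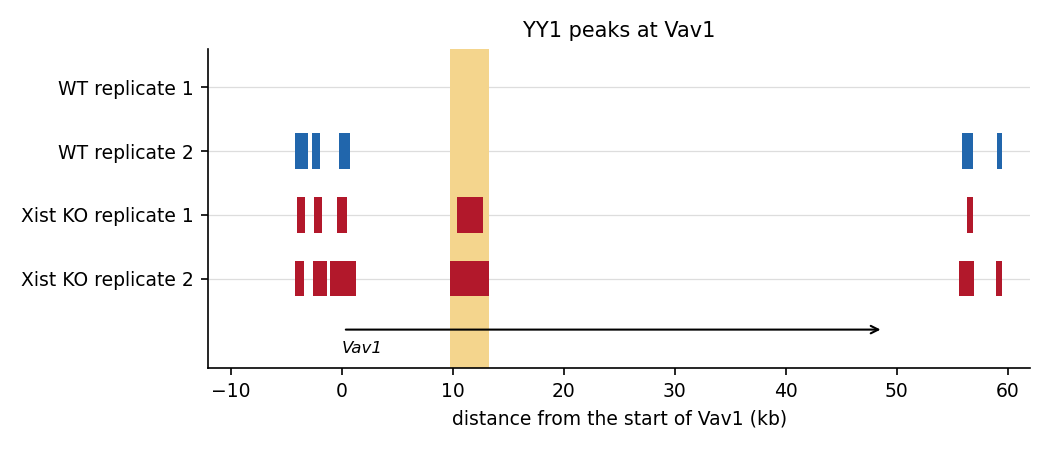
Bars are the YY1 peaks of each library at Vav1, drawn to scale as distance from the start of the gene (kb), with the gene as an arrow and the XistΔ/Δ-specific region shaded. The shaded peak was 2333 and 3461 bp wide in the XistΔ/Δ libraries, and WT replicate 1 had no peak in the stretch shown.

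The second-ranked member lay upstream of Tdpoz3 (ENSMUSG00000058005.3), which encodes a protein with TRAF and POZ domains, on chromosome 3, and the members ranked 11 and 12 lay beside it. The 3 regions stood together in 10109 bp, the closest pair 80 bp apart. The one nearest the gene, at chr3:93822103-93824002 and 2018 bp from its start, had peaks of 1563 and 1900 bp in XistΔ/Δ replicates 1 and 2. The other two had 501 bp each in XistΔ/Δ replicate 1 and 1458 and 1428 bp in replicate 2. All 3 windows were poor in CpG, with an observed over expected ratio of 0.111, 0.191 and 0.0582. The median was 0.682 among all consensus regions but 0.293 among the XistΔ/Δ-specific regions. The WT peak closest to any of these 3 members was 258400 bp away, and no region within 50 kb of the gene had peaks in all 4 libraries.

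Coil (ENSMUSG00000033983.13), which encodes coilin, the scaffold of Cajal bodies, had the third-ranked member 650 bp from its start, at chr11:88967827-88969602. The peaks were 1558 and 1776 bp wide in XistΔ/Δ replicates 1 and 2, at percentiles 90.4 and 82.4. With Vav1 and Tdpoz3 this made 3 of 167 XistΔ/Δ-specific regions above percentile 90 in XistΔ/Δ replicate 1, and Vav1 was the 1 such region in replicate 2. In the WT-specific class 0 of 63 regions passed percentile 90 in either WT library. The exact interval of that share reaches 5.69%, beside 1.8% and 0.599% of the XistΔ/Δ-specific regions in XistΔ/Δ replicates 1 and 2.

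The longest run of members, defined as regions of 1 class less than 1 Mb apart, held 7 XistΔ/Δ-specific regions in 56062 bp of chromosome 13, from 119627328 to 119683389. Of these, 3 were at Ccl28, a chemokine of mucosal tissues, 2 near the pseudogene Gm48300 and 2 near the long noncoding RNA gene 1700074H08Rik. At Ccl28 (ENSMUSG00000074715.3) the peaks were 1372, 630 and 1130 bp in XistΔ/Δ replicate 1, along the gene, and 501 bp each in replicate 2. At Gm48300 they were 770 and 627 bp in replicate 1 and 1206 and 969 bp in replicate 2. At 1700074H08Rik they were 929 and 1155 bp in replicate 1 and 910 and 705 bp in replicate 2. XistΔ/Δ replicate 1 was thus the wider library at Ccl28 and 1700074H08Rik although it was the shallower one, and XistΔ/Δ replicate 2 was the wider one at Gm48300.

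Peaks of WT lay between these 7 regions. Within 100 kb of Ccl28 27 merged regions were found, 7 of them XistΔ/Δ-specific, 1 WT-specific and 3 with peaks in all 4 libraries. The WT-specific one, in an intron of Tmem267 at chr13:119597640-119598194, was 501 bp wide in both WT libraries. Inside Ccl28, WT replicate 2 had a peak of 501 bp in a region 8576 to 10521 bp from the start, where the XistΔ/Δ libraries had 1346 and 769 bp. WT replicate 1 had 1 peak of 501 bp inside Ccl28, where XistΔ/Δ replicate 1 had 1095 bp and neither replicate 2 library had a peak. It also had peaks of 760 and 501 bp on either side of the first 1700074H08Rik member. The region of the latter peak had 501 bp in XistΔ/Δ replicate 1 and again none in replicate 2. Regions with peaks in both replicate 1 libraries and neither replicate 2 library numbered 12 over all autosomes. None of the 7 windows had another copy in the genome at 95% identity or more over at least 90% of its length.

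**Figure D3:**
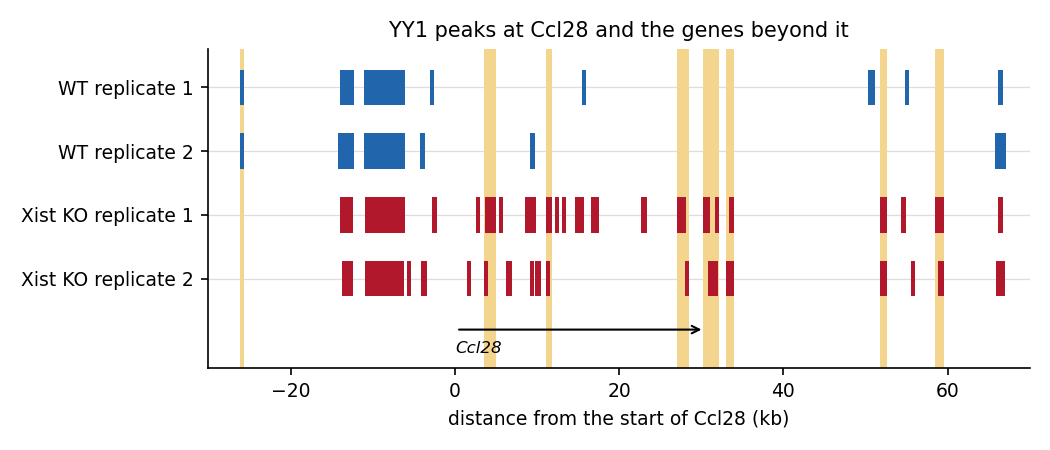
Bars are the YY1 peaks of each library, to scale as distance from the start of Ccl28 (kb), with the gene as an arrow and members shaded. The 7 shaded XistΔ/Δ-specific regions lie between 3509 and 59570 bp, among 27 merged regions, and the shaded WT-specific region lies before the gene.

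In all, 48 of the 167 XistΔ/Δ-specific regions (28.7%, exact interval 22.0% to 36.2%) stood in 20 runs and 10 of the 63 WT-specific regions (15.9%, 7.88% to 27.3%) in 5 runs of 2. The larger class has more members within reach of each other by number alone, so these shares, and the counts of genes with several members, do not compare the classes. At Fyb, an adaptor protein of T cell receptor signalling, 3 XistΔ/Δ-specific regions lay within 79380 bp of chromosome 15. Of these, 2 covered annotated starts of Fyb transcripts, with 501 bp in both XistΔ/Δ libraries at one and 630 and 791 bp at the other, and the intronic one had 634 and 895 bp. A further run of 3 lay on chromosome 17 from 27262595 to 27340736, 1 at AC141882.2 and 2 at Gm10505, with 501 bp in each case in XistΔ/Δ replicate 1 and 501, 669 and 635 bp in replicate 2. Of the 157 genes named for the XistΔ/Δ-specific regions 7 had 2 or more members, against 0 of 63 genes for the WT-specific regions.

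Among the WT-specific regions the highest rank belonged to Gm6345 (ENSMUSG00000096964.1), a transcribed pseudogene. Its region at chr1:170254817-170256054 covered the start of the gene, with peaks of 900 and 1238 bp in WT replicates 1 and 2 at percentiles 48.5 and 61.9. The second lay in an intron of Ptpn3, a tyrosine phosphatase of the cell cortex, at chr4:57262554-57263717 and 36658 bp from a start of that gene. Its peaks were 789 and 1164 bp wide, at percentiles 40.5 and 57.5. The third covered the start of Maff, a small Maf leucine zipper factor, with 678 and 1006 bp. The highest-ranked WT-specific regions were thus lower in their libraries than the first 3 XistΔ/Δ-specific regions were in theirs. The top of a larger class can lie higher by number alone, so this does not compare the classes.

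The other WT-specific members of the first 10 were at Vps37b, an ESCRT-I subunit (501 and 1295 bp in WT replicates 1 and 2), Trim8, a ubiquitin ligase (639 and 909 bp), and Vdac2, a channel of the outer mitochondrial membrane (706 and 785 bp). Sp9, a zinc finger factor, had 501 and 1095 bp, and Sccpdh, a dehydrogenase-like protein, had 778 and 663 bp. Gimap6, a GTPase of lymphocytes, had 501 and 1019 bp and Sox12, a Sox family factor, 501 and 1012 bp. WT replicate 2 was the wider library at 9 of these 10 regions, the exception being Sccpdh.

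Of the other XistΔ/Δ-specific members among the first 15, Mrpl55, a protein of the large subunit of the mitochondrial ribosome, had peaks of 810 and 1022 bp over its start in XistΔ/Δ replicates 1 and 2. Itm2b, a membrane protein gene, had 791 and 830 bp at 12473 bp from its start, and Rubcnl, a regulator of autophagy, had 815 and 788 bp in an intron. Myo1f, a myosin of neutrophils, had 501 and 1388 bp in an intron. H2-M3, a class Ib MHC protein that presents formylated peptides, had 501 and 1387 bp over its start. The Myo1f region had a WT peak only 17 bp away, whereas the nearest WT peak to H2-M3 was 310587 bp away.

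Of 5 gene lists of blood and chromatin biology, 4 held 0 members, namely blood transcription factors (70 genes), cell cycle (42), interferon and antigen presentation (35) and chromatin (39). Few consensus regions of any kind had a gene of these 4 lists, with 0.956%, 0.435%, 0.217% and 0.319% of them, and a count of 0 allows a share of up to 2.18% of the XistΔ/Δ-specific and 5.69% of the WT-specific regions by the exact interval. The counts of 0 hold for the listed genes only. H2-M3 and Ifnlr1 were named for members but were not on the interferon and antigen presentation list. Likewise Chd7 and Scmh1 were not on the chromatin list, and Ets2 was not on that of blood transcription factors. The fifth, blood receptors and signalling (50 genes), held 4 XistΔ/Δ-specific (2.4%, 0.656% to 6.02%) and 2 WT-specific members (3.17%, 0.387% to 11%), beside 78 of all 13801 consensus regions (0.565%). The lists were chosen with earlier results of these data known, and this list includes Vav1 and Ptpn3, which have high ranks. Its shares among the members are therefore no measure of enrichment. Beside Vav1 the XistΔ/Δ-specific ones were Socs3, an inhibitor of cytokine signalling (682 and 501 bp), Csf1r, the receptor of the macrophage growth factor (501 and 657 bp), and Plcg2, a phospholipase of B cell receptor signalling (501 bp in both). The WT-specific ones were Ptpn3 and Vav3, a relative of Vav1, with 501 bp in both WT libraries in an intron. Plcg2 and Vav3 were at the most frequent width in both of their libraries, and Socs3 and Csf1r were in 1 of 2.

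Promoter-near regions were fewer among the members than among regions bound in all libraries. Within 3 kb of an annotated transcription start site (TSS) stood 88 XistΔ/Δ-specific regions (52.7%, exact interval 44.8% to 60.5%) and 31 WT-specific regions (49.2%, 36.4% to 62.1%). The share was 77.0% among all autosomal consensus regions, 92.1% among those with peaks in all 4 libraries and 51.2% among those with peaks in the replicate 2 libraries only. With protein-coding TSSs alone it was 37.7% in the XistΔ/Δ-specific and 44.4% in the WT-specific class, beside 71.3%. With lists of equal length the shares were 62.6% and 75.5%.

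**Figure D4:**
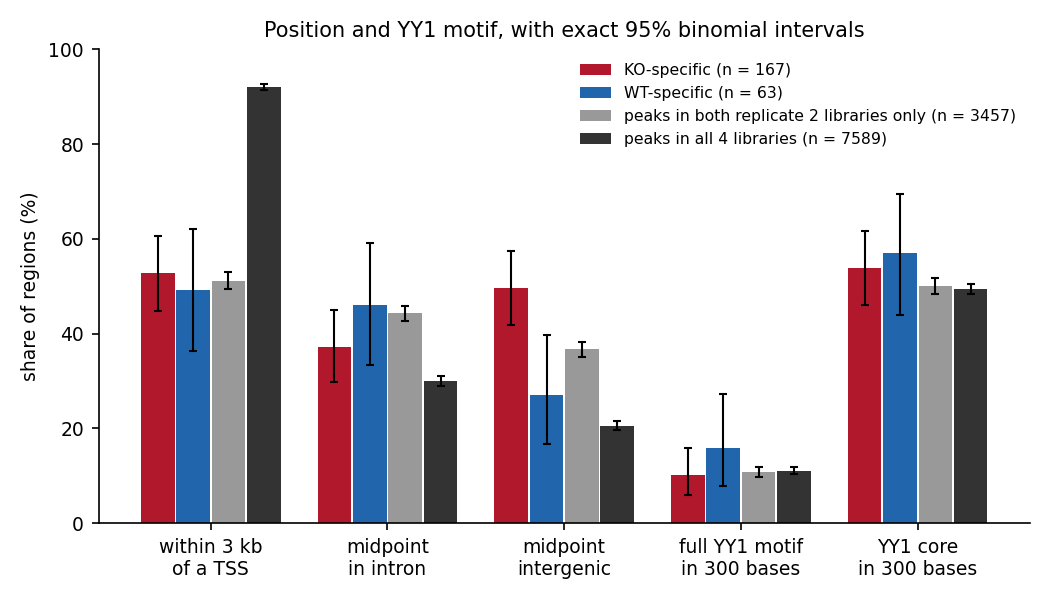
Bars give the share of regions (%) in 5 overlapping categories for both classes, for regions with peaks in the replicate 2 libraries only and for those with peaks in all 4, with exact 95% binomial intervals. Within 3 kb of a TSS lay 52.7%, 49.2%, 51.2% and 92.1%, and the full YY1 motif was in 10.2%, 15.9%, 10.8% and 11%.

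The midpoint was intergenic in 83 XistΔ/Δ-specific regions (49.7%, 41.9% to 57.5%) and in 17 WT-specific regions (27%, 16.6% to 39.7%). The intervals cover counting error only. All consensus regions gave 27% and those of the replicate 2 libraries only 36.7%. Introns held 62 and 29 midpoints (37.1% and 46.0%), coding exons 5 and 8 (2.99% and 12.7%), untranslated regions 13 and 6 (7.78% and 9.52%) and noncoding exons 4 and 3 (2.4% and 4.76%). All consensus regions gave 34.7% for introns, 9.98% for coding exons, 21.8% for untranslated regions and 6.58% for noncoding exons. Of the XistΔ/Δ-specific regions 43 were both TSS-proximal and intergenic at the midpoint, against 6 of the WT-specific regions (25.7% and 9.52%, beside 15.4%). Protein-coding genes were the named gene for 121 of 167 (72.5%) and 52 of 63 (82.5%), beside 86.7%, and processed pseudogenes for 16 and 2 (9.58% and 3.17%, beside 2.77%). No test was made, since regions of the same libraries are not replicates.

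The windows were less rich in GC than those of regions bound in all libraries. The median GC content of the windows was 51.3% in the XistΔ/Δ-specific and 53.3% in the WT-specific class, beside 64.7% for regions in all 4 libraries and 50.3% for those of the replicate 2 libraries only. The median CpG ratio was 0.293 and 0.398, beside 0.826 and 0.306. Repeat-masked letters made up over 50% of the window in 5 and 6 members (2.99% and 9.52%), beside 2.66% of all regions. A second near-identical copy in the genome was found for 1 XistΔ/Δ-specific region, at Sp140, and for 2 WT-specific regions, at Zfp992 and Gm2619. Of the 167 and 61 that could be searched these were 0.599% and 3.28% (exact interval of the latter 0.4% to 11.3%), beside 0.91% of all consensus regions. Whether reads at Sp140, Zfp992 and Gm2619 came from the copies was not tested, and the authors had removed alignments of quality below 30.

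The distance to the nearest peak of the other genotype had a median of 15175 bp for XistΔ/Δ-specific and 9296 bp for WT-specific regions. It was under 1 kb for 9 (5.39%) and 10 (15.9%), and under 100 kb for 150 (89.8%) and 59 (93.7%). The shortest was 14 bp, at Lrrfip2 (501 and 669 bp in XistΔ/Δ replicates 1 and 2), and 68 bp in the WT-specific class, at Cnih4 (501 and 665 bp in WT). The longest was 648719 bp, at Ptprm, a receptor phosphatase (647 and 501 bp), and 1176827 bp, at Mdfic (501 bp in both WT libraries). Consensus regions lay close together in general. Another consensus region stood within 1 kb of 5.99% of the XistΔ/Δ-specific and 14.3% of the WT-specific regions, beside 8.95% of all consensus regions, and within 100 kb of 91% and 90.5%, beside 89.3%.

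The nearest other consensus region had peaks in all 4 libraries for 77 XistΔ/Δ-specific (46.1%, 38.4% to 54%) and 44 WT-specific members (69.8%, 57% to 80.8%), beside 53.1% of all consensus regions. It was another XistΔ/Δ-specific region for 13 of the former (7.78%), and another WT-specific region for 0 of the latter (exact interval up to 5.69%). The classes made up 1.21% and 0.456% of the autosomal consensus regions, so these counts do not compare them.

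**Figure D5:**
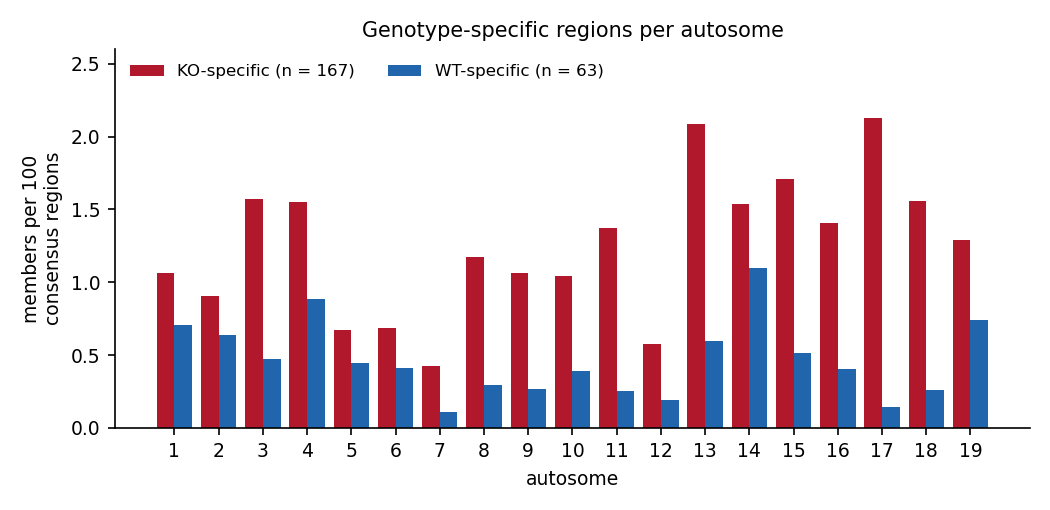
Bars give the XistΔ/Δ-specific (red) and WT-specific (blue) members per 100 consensus regions of each autosome. Red bars are highest on chromosomes 17 (2.13) and 13 (2.09) and blue bars on chromosomes 14 (1.1) and 4 (0.884).

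Both classes had members on all 19 autosomes. Per 100 consensus regions, XistΔ/Δ-specific members numbered 2.13 on chromosome 17 (15 members) and 2.09 on chromosome 13 (14 members, 7 of them in the run at Ccl28), and 0.424 on chromosome 7. WT-specific members numbered 1.1 on chromosome 14 (5 members) and 0.884 on chromosome 4 (8 members), and 0.106 on chromosome 7. Each chromosome had more XistΔ/Δ-specific than WT-specific members. With 63 WT-specific regions in all, counts of 1 to 8 per chromosome carry large counting error, and the chromosomes were not compared by a test.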

How the data were processed

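YY1 ChIP-seq peak lists of 4 libraries, made from MNase-digested chromatin, were used, and the 8 libraries of histone marks were not analysed here. Per the labels and the methods of the study, the authors trimmed reads with Trim Galore, aligned them to mm10 with Bowtie2 2.3.5.1, removed alignments of quality below 30 and duplicates, and called peaks per library with HOMER 4.9.1 findPeaks, with no input library in the command given by the file headers (500 bp peaks joined into regions, FDR 0.001, 4-fold over local signal). The deposited score is 1 for every peak and ranks nothing, so width was used. A further deposited measure, the peak position, was read as 0-based start and end.

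Peaks sharing 1 bp were merged (Python 3.11.15). Regions were placed on GENCODE M21 and on the GRCm38.p6 RefSeq sequence, whose chromosomes no peak overran. A member took the gene with a TSS within 3 kb, else the gene it lay in, else the nearest, protein-coding genes first. Copies were searched with blastn 2.17.0. Intervals are exact binomial (scipy 1.17.1). Merging, class calls and motif search were tested on simulated data. Genes were named by rule: the 15 XistΔ/Δ-specific and 10 WT-specific members with the highest mean width percentile, members in 5 gene lists, the longest runs, members with copies, and the nearest and farthest from the other genotype. The motif-bearing members below those ranks and the shorter runs were chosen after their values were seen. Members and lists were chosen with earlier results of these data known. Alternatives were other overlaps, merging distances, widths, list lengths, TSS and motif definitions, and leaving out each library.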

Additional observations from a re-analysis of the deposited data

How the results depend on the processing

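The number of specific regions depended on list length, peak width and single libraries, and the shares moved under some alternatives too. Counts and shares were held to unlike limits, so how far they moved is not compared. An alternative that changes the calls describes other regions than the members alone. Of 74 alternatives over the 2 counts and 4 shares, 44 stayed within 1.5 times the count or within the exact interval of the share. Requiring 50% shared bases, merging peaks up to 500 bp apart and requiring 1 kb without a peak of the other genotype kept all 6 results within those limits. Peaks of at least 600 bp gave 60 XistΔ/Δ-specific and 33 WT-specific regions, a motif share of 5% in the former and a TSS-proximal share of 66.7% in the latter. Shortened lists gave 188 WT-specific regions, TSS-proximal shares of 62.6% and 75.5% and a WT-specific motif share of 7.45%. A TSS distance of 1 kb and protein-coding TSSs alone each gave 37.7% TSS-proximal XistΔ/Δ-specific regions. The core GCCAT gave 53.9% and 57.1%, by construction more than the longer motif.

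Leaving out each library in turn, which by construction asks for fewer agreeing libraries, gave 196 to 3737 XistΔ/Δ-specific and 72 to 1742 WT-specific regions, TSS-proximal shares of 42.0% to 61.1% and 46.4% to 78.2%, and motif shares of 9.07% to 13.6% and 6.82% to 15.3%. The replicate numbers taken apart, an alternative chosen after seeing the data, gave 1851 XistΔ/Δ-specific and 1518 WT-specific regions in replicate 1 and 3862 and 1816 in replicate 2. Their TSS-proximal shares were 60.7% and 77.6% in replicate 1 and 43.0% in XistΔ/Δ-specific regions of replicate 2, and the WT-specific motif share was 7.18% in replicate 1. The cause of these moves was not tested. No paired analysis was made, since the results are counts and shares without a test, and the counts within each replicate number are given in its place. Sites weaker than the calling threshold of a library cannot be told from sites without binding, and no tag counts per peak were used.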
